A study of Mus musculus with 16 samples.

Results

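The genes described here build, convert and store the lipids of sebum, the oily secretion of the sebaceous gland. The list held 10 genes, Far2, Elovl3, Elovl6, Scd1, Scd3, Soat1, Mc5r, Cidea, Dgat2 and Fasn, and a gene was taken where the array's annotation gave a probeset that symbol and no other. Of the 10 genes, 9 were measured, by 15 of the 45037 probesets tested, and they make up 9 of 18193 genes on the array. Soat1, which esterifies cholesterol, is not analysed here. The rule used gene names only and no measured value, but the genes were chosen with earlier results of these data known.

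Sebaceous glands sit beside the hair follicle, and their cells, the sebocytes, fill with lipid and burst to release it. Fasn makes palmitate, enzymes of the Elovl family lengthen fatty acids, and the Scd desaturases place a double bond in them. Far2 reduces fatty acids to the fatty alcohols of wax esters, Dgat2 makes triglycerides, Cidea coats lipid droplets and helps them grow, and Mc5r is a melanocortin receptor that the sebum output of mice depends on. Fasn, Scd1, Elovl6, Dgat2 and Cidea also serve fat cells, so their signal in whole skin can come from more than the gland.

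RNA from 12 skin carcinomas and 4 samples of normal skin of FVB mice was hybridised to Affymetrix MOE430 2.0 arrays, 1 array per sample. The 5 pRbp53 tumors came from k14Cre;p53loxP/loxP;pRbloxP/loxP mice, in which Cre recombinase under the keratin K14 promoter deletes the tumor suppressors p53 and pRb in stratified epithelia. The 7 p53 tumors came from k14Cre;p53loxP/loxP mice, which lose p53 alone in those epithelia, and the 4 control skins were wild type, without Cre. By histology the tumors comprised 6 undifferentiated or spindle cell carcinomas (4 pRbp53 and 2 p53), 3 poorly differentiated carcinomas (all p53) and 3 mixed tumors (1 pRbp53 and 2 p53) that hold differentiated and undifferentiated areas. Ages and sexes are not given in the sources used here, nor whether each sample came from its own animal, so p-values measure only the spread between these samples. All samples are bulk tissue, in which fewer sebocytes and less RNA per sebocyte cannot be told apart.

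Levels are RMA signals on a log2 scale, on which a difference of 1 is a change by a factor of 2. The array medians lay between 5.63 and 5.76, and the lower quartile of an array's probesets lay at a signal of 4.01 to 4.13, which serves here as a mark of low signal because the values come without detection calls. Rb1, the pRb gene, ran between 7.10 and 7.94 in pRbp53 tumors, between 7.57 and 8.50 in p53 tumors and between 8.98 and 9.54 in control skin, and where its probeset lies relative to the deleted part is not known. The milk protein gene Csn2 was at 8.75 to 13.67 on 5 arrays (p53 tumors 2, 3, 4 and 5 and control skin 3) and at 3.10 to 4.47 on the other 11. On 2 arrays, p53 tumor 7 and control skin 3, the signal of the actin control was 1.67 and 1.33 higher at its 3' than at its 5' end, against 0.21 to 0.68 on the other 14, a measure of RNA integrity.

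The 9 genes lie on 6 chromosomes of the mouse genome (build GRCm38.p6). Scd1 (chr19:44394450-44407709) and Scd3 (chr19:44203288-44244016) belong to a cluster of 4 desaturase genes that spans 204 kb, and Elovl3 lies further along the same chromosome (chr19:46131897-46135694). Far2 lies at chr6:148047416-148182758, Elovl6 at chr3:129532386-129638495, Dgat2 at chr7:99153663-99182713 and Fasn at chr11:120805958-120825166. RefSeq promoters were found for 5 of the 10 genes, and the 250 bases before the start are printed for 4 of them to set Far2 and Scd3, with mean signals of 3.53 and 4.88 in tumors, beside Elovl6 and Fasn, with mean signals of 8.22 and 9.87. Capitals mark matches on either strand to the letters CCAAT (the NF-Y box), AGGTCA (a nuclear receptor half-site), TCACNCCAC (a sterol regulatory element) or TATAAA (the TATA box).
Far2 (chr6:148047166-148047415, plus strand): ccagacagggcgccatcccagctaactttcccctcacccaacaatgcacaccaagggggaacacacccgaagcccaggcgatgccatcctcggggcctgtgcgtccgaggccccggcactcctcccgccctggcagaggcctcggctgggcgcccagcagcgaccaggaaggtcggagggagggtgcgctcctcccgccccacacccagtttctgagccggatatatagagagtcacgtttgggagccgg
Scd3 (chr19:44203038-44203287, plus strand): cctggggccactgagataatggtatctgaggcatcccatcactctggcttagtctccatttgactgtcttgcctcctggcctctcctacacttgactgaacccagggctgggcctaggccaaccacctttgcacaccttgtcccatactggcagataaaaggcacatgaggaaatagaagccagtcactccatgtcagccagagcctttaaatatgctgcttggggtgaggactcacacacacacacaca
Elovl6 (chr3:129532136-129532385, plus strand): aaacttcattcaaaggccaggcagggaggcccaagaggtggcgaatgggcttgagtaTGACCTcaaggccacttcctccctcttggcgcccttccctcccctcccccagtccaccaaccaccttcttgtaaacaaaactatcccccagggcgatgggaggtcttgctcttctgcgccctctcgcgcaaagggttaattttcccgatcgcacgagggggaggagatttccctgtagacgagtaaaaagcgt
Fasn (chr11:120824548-120824797, minus strand): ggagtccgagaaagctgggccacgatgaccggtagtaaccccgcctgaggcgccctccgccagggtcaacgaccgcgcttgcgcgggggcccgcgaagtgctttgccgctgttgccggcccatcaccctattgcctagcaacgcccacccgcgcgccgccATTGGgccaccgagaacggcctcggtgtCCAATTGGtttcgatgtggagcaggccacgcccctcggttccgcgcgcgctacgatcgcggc
The Fasn promoter held CCAAT 3 times, 90, 62 and 59 bases before the start, and the last 2 matches overlap on opposite strands in the run CCAATTGG. Elovl6 held AGGTCA once, on the minus strand 193 bases before the start, and the windows of Far2 and Scd3 held none of the 4 motifs. Among 32851 promoters of the same length, 33.8% held CCAAT, 14% AGGTCA, 1.05% TCACNCCAC and 12.4% TATAAA, so these matches are a description and not sites of binding. The Fasn window lies inside the gene span given above, because it precedes a transcript start downstream of the gene's outermost one.

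The first question was how the genes of sebum synthesis stand in the carcinomas beside normal wild type skin. Of the 9 genes, 8 were lower in the 12 tumors than in the 4 control skins at an adjusted p of 0.05 (limma, Benjamini-Hochberg over all 45037 probesets) and 0 were higher. In the same comparison 9.17% of the 18193 genes were lower and 7.57% higher. For 7 of the 9 genes every tumor lay below every control skin, as was the case for 5.54% of all genes, while 3.86% lay above in every tumor. The median difference of the 9 genes was -4.05 on the log2 scale, and that of all genes was 0.06. Mc5r was the gene that did not pass, and Fasn passed with overlapping groups.

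Far2, the fatty alcohol enzyme, had the largest difference of the 9. Its signals were 3.64, 3.54, 3.51, 3.55 and 3.39 in pRbp53 tumors and ran between 3.28 and 3.66 with a median of 3.60 in p53 tumors, against 11.17, 9.98, 10.16 and 10.24 in control skin. All 12 tumors lay below the lower quartile of every array, whatever their genotype or histology, while all 4 control skins were among the brighter probesets. The mean was 3.53 ± 0.13 (SD, n = 12) in tumors and 10.39 ± 0.53 (SD, n = 4) in control skin, a difference of -6.86 ± 0.16 (SE, adjusted p = 4.1085e-14) or 116-fold. Because signals this low are mostly background, such folds are limited by the array.

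Elovl3, which makes very long saturated and monounsaturated fatty acids in the gland, was also low in every tumor. Its signals were 3.78, 4.25, 3.46, 4.13 and 4.02 in pRbp53 tumors and between 3.76 and 4.09 with a median of 3.92 in p53 tumors, against 8.99, 8.66, 8.84 and 7.52 in control skin. The groups did not overlap, and the lowest control, control skin 4, was still far above the highest tumor, pRbp53 tumor 2. The difference was -4.59 ± 0.20 (SE, adjusted p = 9.73688e-11). Elovl6, which lengthens palmitate to stearate, kept more signal in the tumors. It stood at 8.64, 8.50, 7.39, 8.34 and 6.69 in pRbp53 tumors and between 7.58 and 9.33 with a median of 8.16 in p53 tumors, against 11.87, 11.84, 11.89 and 11.67 in control skin. The difference of -3.60 ± 0.38 (SE, adjusted p = 5.29411e-06) left all 12 tumors well above the low range of the array.

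The desaturases Scd1 and Scd3 both fell. Scd1, the main desaturase of skin, stood at 8.94, 7.90, 8.34, 9.79 and 9.80 in pRbp53 tumors and between 6.89 and 12.77 with a median of 10.07 in p53 tumors, against 13.04, 13.47, 12.89 and 13.13 in control skin. It had the widest spread among tumors of the 9 genes (SD 1.60, n = 12), with p53 tumor 5 just below the lowest control skin and p53 tumor 7 lowest of all. The difference was -3.48 ± 0.77 (SE, adjusted p = 0.00637). Scd3, which prefers palmitate and is found in sebocytes, stood at 4.29, 4.22, 4.67, 4.60 and 4.60 in pRbp53 tumors and between 4.21 and 6.03 with a median of 5.09 in p53 tumors, against 10.19, 8.89, 8.62 and 9.25 in control skin. The groups were apart by more than 2 on the log2 scale, and the difference was -4.36 ± 0.34 (SE, adjusted p = 1.57999e-07).

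Fasn, the start of the pathway, had the smallest difference of the 8 genes that passed. It was at 9.94, 9.87, 9.01, 9.97 and 9.30 in pRbp53 tumors and between 9.25 and 11.01 with a median of 10.21 in p53 tumors, against 10.95, 11.73, 10.85 and 10.79 in control skin. The groups overlapped, since p53 tumor 4 exceeded 3 of the 4 control skins and the other 11 tumors lay below all of them. The difference was -1.21 ± 0.30 (SE, adjusted p = 0.0117), and without control skin 2, the highest control, it was -0.995 ± 0.318 with an adjusted p of 0.0645.

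The 2 genes of lipid storage were lower in every tumor. Cidea stood at 3.71, 4.29, 3.99, 5.20 and 4.42 in pRbp53 tumors and between 4.29 and 7.36 with a median of 5.02 in p53 tumors, against 10.46, 10.11, 9.67 and 9.69 in control skin. Only p53 tumor 5 exceeded 6 among the 12 tumors, and the difference was -5.07 ± 0.51 (SE, adjusted p = 3.16032e-06). Dgat2 stood at 6.68, 7.53, 7.37, 6.77 and 7.18 in pRbp53 tumors and between 6.93 and 9.49 with a median of 7.48 in p53 tumors, against 11.30, 11.87, 11.45 and 11.59 in control skin. Its difference was -4.05 ± 0.39 (SE, adjusted p = 2.18617e-06), with p53 tumor 5 again highest and p53 tumor 7 (8.48) next to it. Mc5r, the receptor, was near the low range of the array in skin as well, at 4.47, 4.37, 4.53, 4.36 and 4.33 in pRbp53 tumors and between 3.70 and 4.49 with a median of 4.35 in p53 tumors, against 4.76, 4.35, 4.51 and 4.65 in control skin. Its difference of -0.24 (95% confidence interval -0.52 to 0.03, adjusted p = 0.252) was not detectable at that signal, and as a marker of sebocytes it was not evident in these skins.

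**Figure D1:**
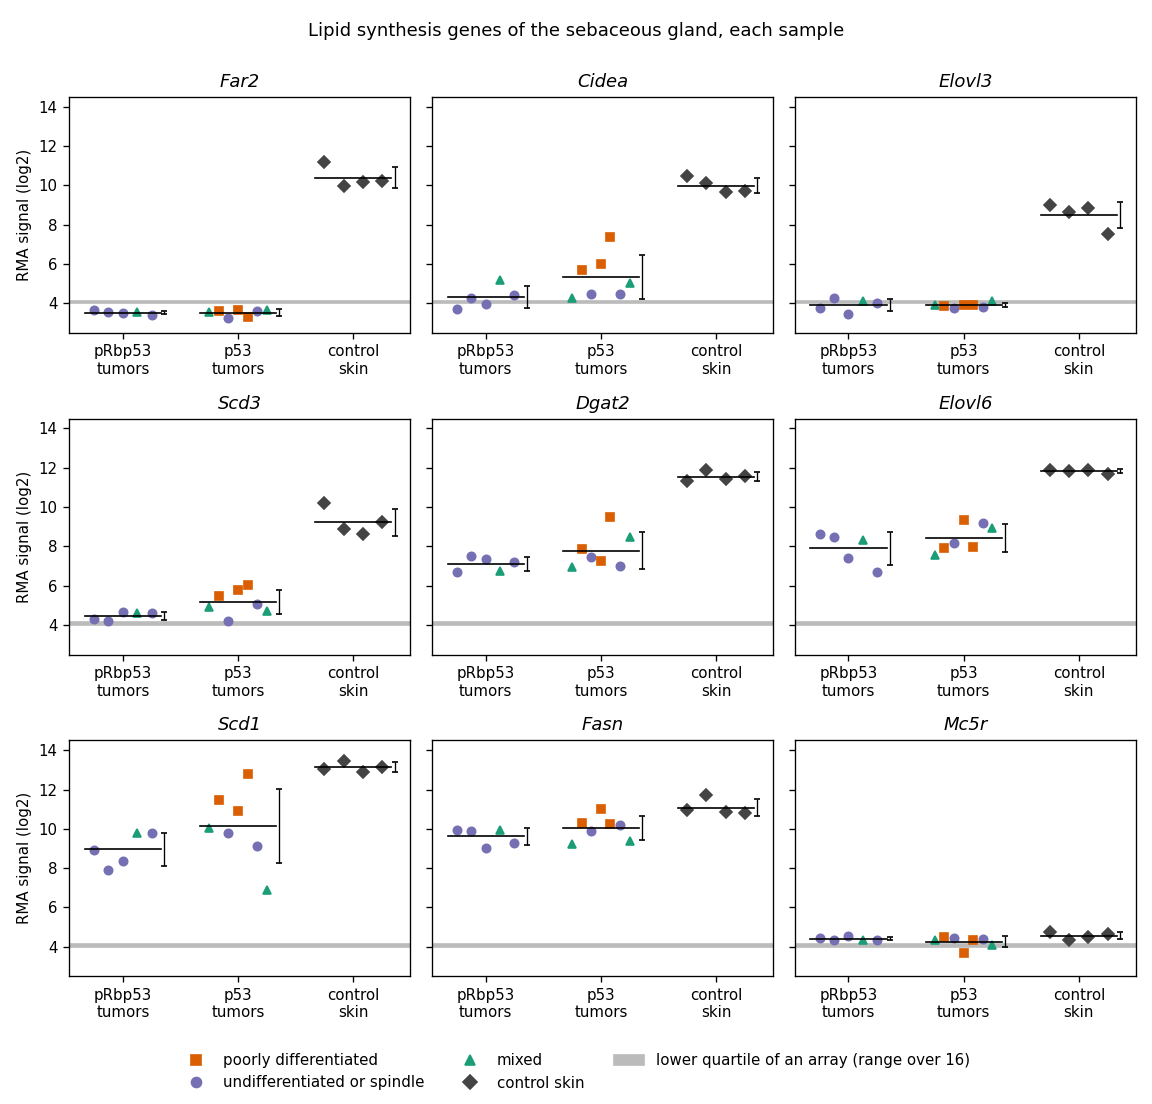
Signal (log2) of each of the 9 genes in each sample, by group, with 1 point per sample, the marker giving the histology, lines the group means, bars the SD and the grey band the range of the lower quartile over the 16 arrays. Far2 and Elovl3 lie in or below the band in all tumors or next to it, Scd1 is spread from 6.89 to 12.77 among tumors, and Mc5r lies near the band in tumors and skin alike.

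Several probesets of a gene gave the same direction. Of the 15 probesets, 14 passed with lower signal in tumors, the exception being the single probeset of Mc5r. The share of all tested probesets that were lower was not taken, and probesets of the same gene are not independent measures. The second probeset of Far2 averaged 3.01 ± 0.12 (SD, n = 12) in tumors and 8.25 ± 0.42 (SD, n = 4) in control skin, and that of Scd3 averaged 4.004 ± 0.262 in tumors and 7.72 ± 0.67 in control skin. The 3 probesets of Elovl6 differed in size, by -3.60, -3.63 and -1.72, the last from a dimmer probeset with 7.76 in control skin.

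The same genes were set against control skin for each kind of tumor alone, with the same 4 control skins in each comparison. In pRbp53 tumors 8 of the 9 genes were lower (as were 13.1% of all genes) and in p53 tumors 6 (7.93%), where Scd1 (-2.99 ± 0.88, adjusted p = 0.0544) and Fasn (-1.03 ± 0.32, adjusted p = 0.0666) did not pass. In undifferentiated or spindle tumors 8 were lower (15.5% of all genes), in mixed tumors 8 (6.61%) and in poorly differentiated tumors 6 (10.8%). Scd1 and Fasn were again the exceptions in poorly differentiated tumors, with differences of -1.42 ± 0.41 (adjusted p = 0.0619) and -0.56 ± 0.29 (adjusted p = 0.269). Far2 differed from control skin by -6.80 to -6.90 and Elovl3 by -4.45 to -4.65 in all 5 of these comparisons.

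Some markers of cell types other than sebocytes were lower in tumors too. Of 9 measured adipocyte markers 8 were lower in tumors, and their summed signal was between 8.42 and 12.18 in tumors and between 14.17 and 15.06 in control skin (log2). None of the markers was at 0, since RMA signals have no true zero. Among the control skins, control skin 3 had the lowest mean of the adipocyte markers, 7.74 against 9.23, 9.68 and 9.31 in the other 3, while the mean of the 9 lipid genes was 9.88 in it, against 10.30, 10.10 and 9.84. This is 1 array, and it also stood apart by its actin signal (1.33), Csn2 (9.83) and a low mean of macrophage markers (7.95). Of 6 brown fat markers 3 were lower, namely Cox7a1, Cox8b and Zic1. Summed signals of the 6 were 6.88 to 11.69 in tumors and 11.30 to 11.56 in control skin. Ucp1, Dio2 and Ppargc1a did not pass, and Dio2 had a positive difference (1.81). Ucp1 averaged 3.68 in tumors and 3.64 in control skin, below the low range of the array, so by Ucp1 alone brown fat was not evident in these skins. Cox7a1, Cox8b and Zic1 averaged 9.66, 10.503 and 8.56 in control skin, and each was lower in every tumor than in any control skin. Dio2 and Ppargc1a both averaged 5.67 in control skin. Whether brown fat was present in the skins was not tested beyond these values. All 5 skeletal muscle markers were lower, at 7.01 to 11.81 in tumors and 15.61 to 15.87 in control skin.

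Epidermal markers varied between tumors over a wider range than Far2 and Elovl3. Of 6 keratinocyte markers 5 were lower in tumors, with a summed signal of 7.996 to 14.86 in tumors and 15.49 to 15.68 in control skin. Krt14, the basal keratin, was however at 13.59 in p53 tumor 7, 12.93 in p53 tumor 2, 12.81 in p53 tumor 4 and 12.05 in p53 tumor 1, against 12.90 to 13.18 in control skin. In those 4 tumors Far2 was at 3.66, 3.61, 3.64 and 3.56 and Elovl3 at 4.09, 3.86, 3.92 and 3.92, the level of the tumors with low Krt14. Krt14 does not stand for the whole list. In the same 4 tumors Krt10 was at 11.19, 11.29, 11.39 and 7.34, against 14.05 to 14.21 in control skin. Krt10, Krt1 and Lor lay below every control skin in all 12 tumors, and Krt5 and Flg did so in 11. Of 7 markers of the inner root sheath of the hair 1 was lower, Gata3, and the list's median difference was 0.26. Summed signals were 7.32 to 10.60 in tumors and 10.64 to 11.08 in control skin. Gata3 alone was at 10.49 to 10.98 in control skin and sets most of that sum. Krt25, Krt27, Krt28 and Tchh averaged between 3.38 and 4.25 in control skin, near the low range of the array. The part of these cell types in the differences of the lipid genes was not tested beyond these values.

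**Figure D2:**
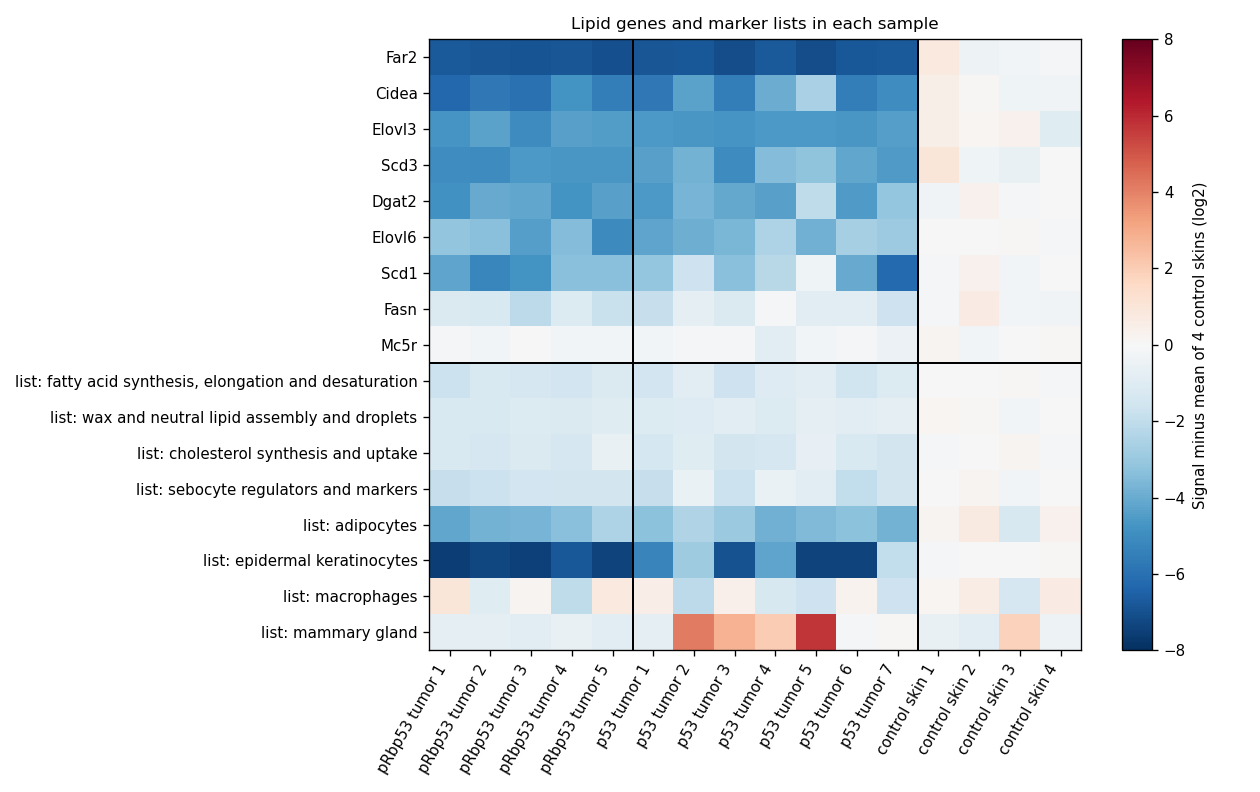
Signal of each of the 9 genes (upper rows) and mean signal of 8 gene lists (lower rows) in each sample, minus the mean of the 4 control skins (log2, colour scale in log2 units), with pRbp53 tumors left, p53 tumors in the middle and control skin right. The rows of Far2 and Elovl3 are even across tumors, those of Scd1, Cidea and Dgat2 are palest in p53 tumor 5, and the keratinocyte row is pale in p53 tumors 2 and 7.

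The second question was whether loss of pRb in addition to p53 changed these genes. At an adjusted p of 0.1 none of the 9 genes differed between pRbp53 and p53 tumors, and 29 of all genes (0.159%) did, so the comparison gave few calls of any kind. Scd3 alone had an unadjusted p under 0.05, with means of 4.48 ± 0.20 in pRbp53 tumors (SD, n = 5) and 5.17 ± 0.63 in p53 tumors (SD, n = 7) and a difference of -0.70 ± 0.28 (SE, adjusted p = 0.470). The intervals were narrow for Far2 (-0.20 to 0.21) and Elovl3 (-0.26 to 0.31), which lie at low signal in both genotypes, and wide for Scd1 (-3.03 to 0.64), Cidea (-2.12 to 0.10) and Dgat2 (-1.58 to 0.22). For Elovl6 the interval was -1.43 to 0.38, for Fasn -1.08 to 0.22 and for Mc5r -0.14 to 0.44. The median difference over the 9 genes was -0.52, against -0.01 over all genes. All poorly differentiated tumors and all tumors with Csn2 above 8 were p53 tumors, so grade and milk gene signal overlap with genotype here. The cause of the negative median was not tested.

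**Figure D3:**
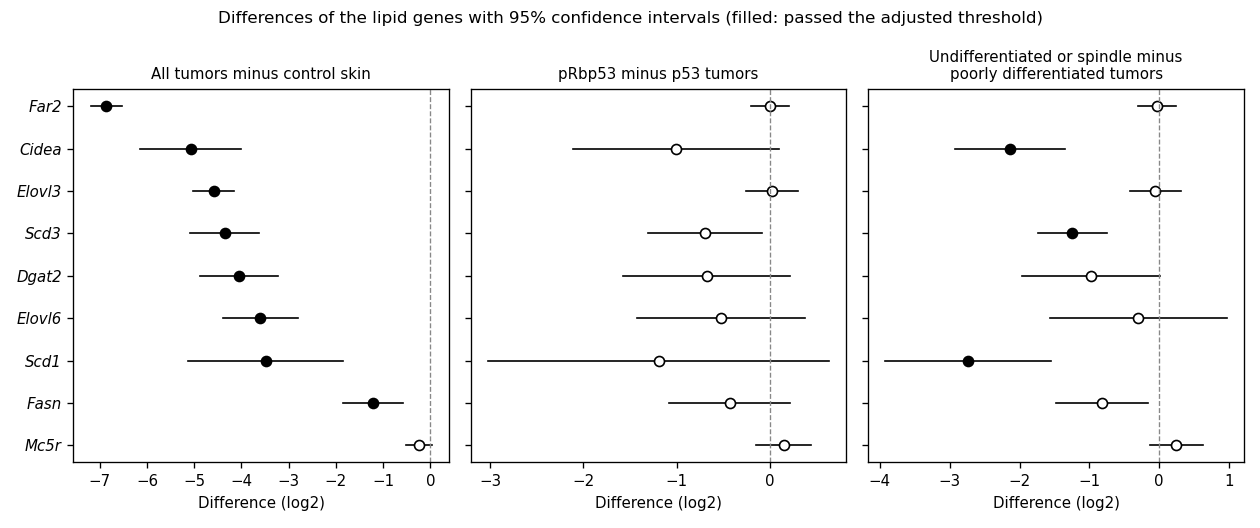
Differences of the 9 genes on the log2 scale (points) with their 95% confidence intervals (lines) for all tumors minus control skin, pRbp53 minus p53 tumors, and undifferentiated or spindle minus poorly differentiated tumors, with filled points for genes that passed the adjusted threshold. In the first panel 8 points are filled, in the second 0 and in the third 3 (Cidea, Scd3 and Scd1).

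The third comparison was by grade, of undifferentiated or spindle against poorly differentiated carcinomas. Scd1, Scd3 and Cidea were lower in the undifferentiated or spindle tumors at an adjusted p of 0.05, that is 3 of 9 genes, where 4.64% of all genes were lower and 4.49% higher. Cidea was between 3.71 and 4.46 with a median of 4.35 in the 6 undifferentiated or spindle tumors, against 5.70, 5.99 and 7.36 in the 3 poorly differentiated ones, a difference of -2.13 ± 0.35 (SE, adjusted p = 0.00831). Scd3 was between 4.21 and 5.09 with a median of 4.45, against 5.48, 5.77 and 6.03 in poorly differentiated tumors, and differed by -1.25 ± 0.22 (SE, adjusted p = 0.0111). In the undifferentiated or spindle tumors Cidea and Scd3 lay at or near the low range of the array (4.01 to 4.13), which limits the size of these differences. Scd1 was between 7.90 and 9.80 with a median of 9.03, against 11.46, 10.92 and 12.77, and differed by -2.74 ± 0.52 (SE, adjusted p = 0.0159). For these 3 genes and for Fasn the groups did not overlap, that is 4 of 9 genes, where 7.49% of all genes were lower and 8.45% higher without overlap.

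The other 6 genes did not pass by grade. Fasn differed by -0.82 ± 0.29 (SE, adjusted p = 0.135) and Dgat2 by -0.98 ± 0.43 (SE, adjusted p = 0.232), while the intervals were -0.31 to 0.25 for Far2, -0.42 to 0.31 for Elovl3, -1.57 to 0.97 for Elovl6 and -0.13 to 0.62 for Mc5r. The second probesets of Scd1 (-2.37, adjusted p = 0.0801) and of Scd3 (-0.41, adjusted p = 0.170) had the same direction and did not pass. The 3 mixed tumors, left out of the test, had 10.07, 6.89 and 9.79 for Scd1, 4.91, 4.72 and 4.60 for Scd3 and 4.29, 5.02 and 5.20 for Cidea, in the order p53 tumor 1, p53 tumor 7 and pRbp53 tumor 4.

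**Figure D4:**
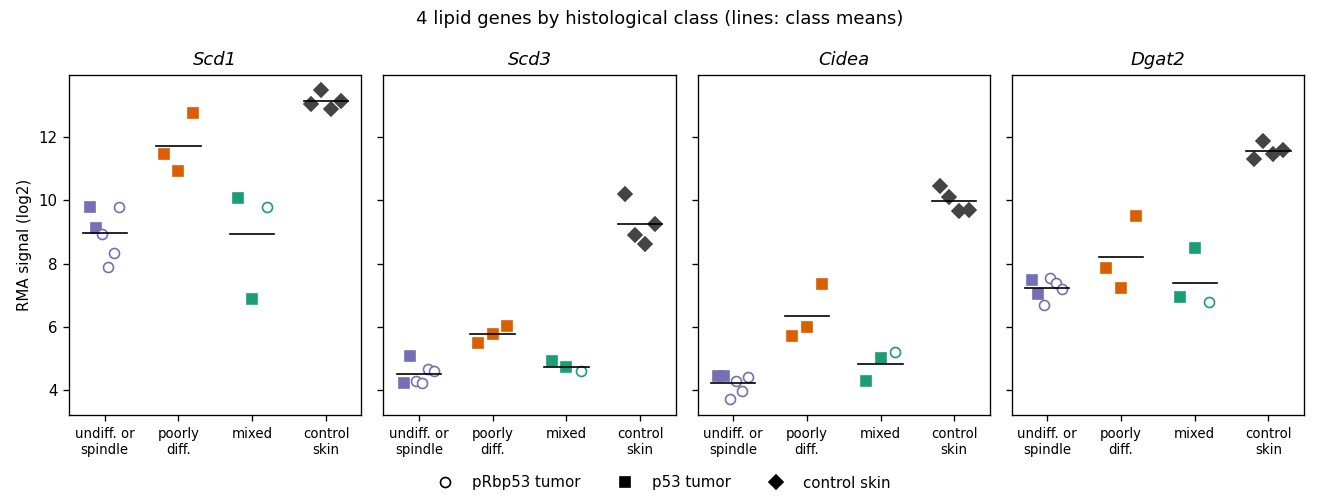
Signal (log2) of Scd1, Scd3, Cidea and Dgat2 by histological class, with 1 point per sample, open circles for pRbp53 tumors, filled squares for p53 tumors, diamonds for control skin and lines for class means. The 3 poorly differentiated tumors lie above all 6 undifferentiated or spindle tumors for Scd1, Scd3 and Cidea, and not for Dgat2, and all 3 are p53 tumors.

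Genotype, milk gene signal and the signal of Xist, used here for sex, moved with grade in these samples. Xist was at 11.66, 12.19 and 12.01 in the 3 poorly differentiated tumors. It ran between 5.26 and 12.03 in the 6 undifferentiated or spindle tumors and between 5.13 and 11.86 in control skin. All 3 poorly differentiated tumors were p53 tumors with Csn2 above 8, and 4 of the 6 undifferentiated or spindle tumors were pRbp53 tumors. With genotype as a covariate the differences were -2.26 ± 0.66 for Scd1 (adjusted p = 0.110), -1.11 ± 0.29 for Scd3 (adjusted p = 0.0767) and -1.89 ± 0.46 for Cidea (adjusted p = 0.0623), so that none passed. Within p53 tumors alone (2 undifferentiated or spindle against 3 poorly differentiated) the differences were -2.26 for Scd1, -1.11 for Scd3 and -1.89 for Cidea (adjusted p between 0.163 and 0.196). They equal those with genotype as a covariate by construction, because only p53 tumors occur in both grades, and are not a separate check. The undifferentiated p53 tumor 3, which also had high Csn2 (10.80), was at 9.78 for Scd1, 4.21 for Scd3 and 4.46 for Cidea. None passed either with the mixed tumors counted as poorly differentiated, or in a test with unequal variances per group. With the Xist signal as a covariate, which stands for sex, Scd3 alone passed (adjusted p = 0.0323). Of the 7 mammary markers 3 were lower in undifferentiated or spindle tumors and their summed signals were 6.94 to 11.94 in these and 11.90 to 15.63 in poorly differentiated tumors. Of the 7 macrophage markers 6 were higher in undifferentiated or spindle tumors, at summed signals of 13.18 to 14.43 against 11.24 to 11.96. The part of these cell types in the 3 differences was not tested.

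The tumor with the highest mean over the 9 genes was p53 tumor 5. It had the highest value among the 12 tumors for 4 of the 9 genes (44.4%), namely Scd1 (12.77), Scd3 (6.03), Cidea (7.36) and Dgat2 (9.49). It was the highest tumor for 2296 of the 18193 genes (12.6%). The share was similar in the wider lists described below, at 47.4% for fatty acid synthesis, 43.8% for cholesterol and 38.5% for wax and neutral lipids, and 20% for sebocyte regulators and markers. It was the tumor with the highest Csn2 (13.67) and Csn3 (14.28), both milk casein genes, and its keratinocyte markers were among the lowest, with Krt14 at 4.41. Its Far2 (3.31) and Elovl3 (3.92) were at the level of the other tumors. Without the 5 arrays with Csn2 above 8, a comparison chosen after seeing the data, 8 of the 9 genes were still lower in tumors than in control skin. Scd1 differed by -4.36 ± 0.60 (adjusted p = 0.00076) and Cidea by -5.67 ± 0.30 (adjusted p = 3.38494e-07). The share of all genes that were lower in this comparison was not taken. The 5 arrays were set by Csn2 alone, and p53 tumor 7 was kept with Csn3 at 10.01.

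The wider pathways around these genes were described from lists of their own. Of 19 measured genes of fatty acid synthesis, elongation and desaturation 7 were lower in tumors, 1 was higher and 11 did not pass, with a median difference of -0.87. Fa2h, which adds the hydroxyl group of skin sphingolipids, averaged 4.68 ± 0.29 in tumors and 10.85 ± 0.46 in control skin (SD, n = 12 and 4), a difference of -6.17 ± 0.19 (adjusted p = 9.90969e-13). Elovl4, which makes the ultra-long fatty acids of the skin barrier, differed by -5.91 ± 0.68 (adjusted p = 1.56156e-05), Acacb, an acetyl-CoA carboxylase, by -3.92 ± 0.30 (adjusted p = 1.11976e-07) and Elovl7, another elongase, by -2.82 ± 0.72 (adjusted p = 0.0157). The call of Elovl7 was lost without control skin 1 (adjusted p = 0.0539) or control skin 4 (adjusted p = 0.0529).

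The gene that was higher was Fads1, a desaturase of polyunsaturated fatty acids, and it is named because the count was 1. It averaged 9.28 ± 0.56 in tumors and 8.14 ± 0.35 in control skin, a difference of 1.15 ± 0.29 (adjusted p = 0.0140). Scd2, the desaturase that lies between Scd3 and Scd1 in the cluster, was chosen after its values were seen. It was between 10.48 and 12.69 in tumors and between 9.99 and 11.04 in control skin, a difference of 0.87 ± 0.32 that did not pass (adjusted p = 0.0914), so that of the 3 measured genes of the cluster the sebaceous pair fell and Scd2 had a positive difference.

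Among 13 measured genes of wax and neutral lipid assembly 5 were lower, 0 higher and 8 did not pass, with a median of -0.56. Acsbg1, an acyl-CoA synthetase, differed by -3.80 ± 0.47 (adjusted p = 4.00375e-05), the lipid droplet protein Cidec by -3.61 ± 0.37 (adjusted p = 3.9494e-06), Gpam, which starts triglyceride synthesis, by -2.47 ± 0.33 (adjusted p = 8.4408e-05) and the droplet protein Plin5 by -1.19 ± 0.19 (adjusted p = 0.000607). Of 16 genes of cholesterol synthesis and uptake 10 were lower, 0 higher and 6 did not pass, with a median of -1.14. The largest differences were those of Msmo1 at -2.82 ± 0.18 (adjusted p = 1.74496e-08) and Hmgcs1 at -1.99 ± 0.22 (adjusted p = 1.34829e-05), followed by Dhcr7 at -1.58 ± 0.45 (adjusted p = 0.0286) and Mvk, an early kinase of the pathway, at -1.44 ± 0.24 (adjusted p = 0.000723). The call of Dhcr7, the last enzyme to cholesterol, was lost without any 1 of the 4 control skins (adjusted p between 0.0610 and 0.0893).

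Of 15 regulators and markers of sebocytes 4 were lower, 0 higher and 11 did not pass. Pparg, the nuclear receptor of sebocyte and fat cell differentiation, averaged 5.09 ± 0.23 in tumors and 7.85 ± 0.56 in control skin and differed by -2.76 ± 0.19 (adjusted p = 2.47026e-08). Mlxipl, a carbohydrate-responsive activator of lipid genes, differed by -2.91 ± 0.29 (adjusted p = 3.66916e-06) and Rxra, a partner receptor of Pparg, by -1.41 ± 0.23 (adjusted p = 0.000558). With the median of its probesets Rxra differed by -0.28 ± 0.10 and did not pass (adjusted p = 0.0671). Krt79, a keratin of the sebaceous duct, differed by -5.36 ± 1.54 (adjusted p = 0.0297) with overlapping groups. It was at 13.20 in p53 tumor 2 and 12.43 in p53 tumor 4, above all control skins (11.39 to 12.40), while Far2 in these tumors was at 3.61 and 3.64. The call of Krt79 was lost without any 1 of the 4 control skins (adjusted p between 0.0660 and 0.0845). Of 5 melanocortin receptors and partners 0 passed in either direction.

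**Figure D5:**
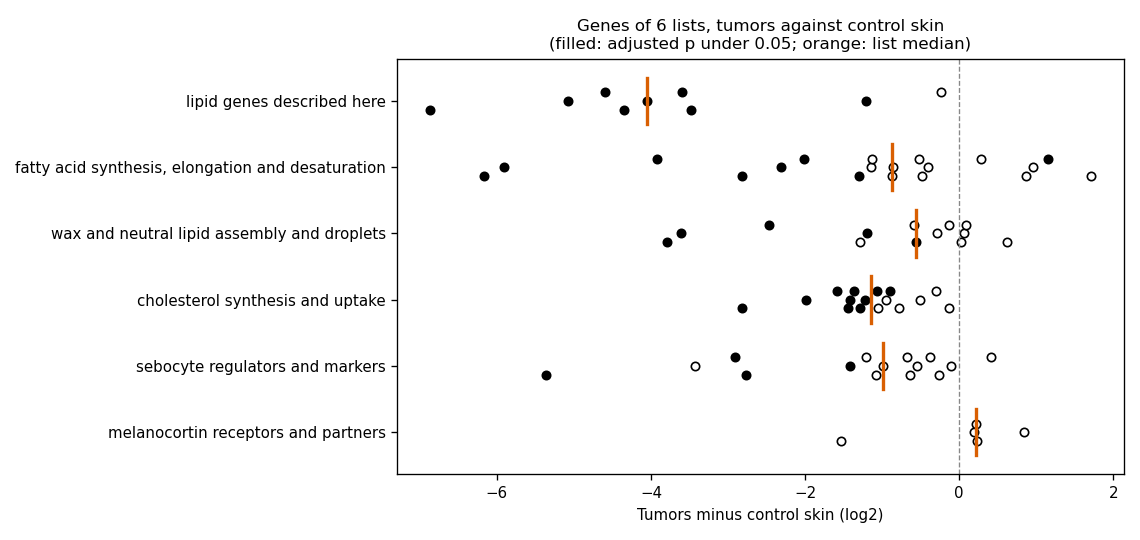
Difference of each measured gene between tumors and control skin (log2) in 6 lists, with filled points for genes with an adjusted p under 0.05 and an orange line at the list median. The median of the 9 lipid genes is -4.05, and those of the next 4 lists lie between -1.14 and -0.56, with Fa2h (-6.17) and Elovl4 (-5.91) next to Far2 (-6.86) at the far left.

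The 5 genes whose pattern over the 16 samples was most like the mean of the 9 genes were Dkkl1 (Pearson r = 0.989), Hhatl (0.983), Cyp1a1 (0.980), Sec14l4 (0.980) and Asb15 (0.979). These correlations are a description, and the gap between tumors and skin that all 16 points share sets most of them. Dkkl1 averaged 5.43 ± 0.47 in tumors and 9.04 ± 0.24 in control skin, and like the 4 others it was lower in every tumor than in any control skin.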

How the data were processed

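Total RNA of 16 samples was hybridised to Affymetrix MOE430 2.0 arrays. The authors made the deposited log2 signals with RMA (background correction, quantile normalization and a summary over each probeset), and its version is not given in the sources used here. Signals are relative, and precision depends on how many arrays a group has.

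Of 45101 probesets, 64 array controls were left out. Platform annotation from 2016 gave 34945 of the other 45037 probesets 1 symbol, 932 several and 9160 none, and 34741 of those with 1 symbol had a gene ID in RefSeq. For a gene with several probesets the brightest on average was used. Differences were fitted to all probesets with limma 3.58.1 in R 4.3.3 (lmFit, eBayes, two-sided, Benjamini-Hochberg adjustment) at an adjusted p of 0.05, or 0.1 for genotype. The code was tested on simulated data. Promoters come from RefSeq (GRCm38.p6) and cover 250 bases before a transcript start, and figures were drawn with matplotlib 3.10.9.

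The genes and lists were chosen with earlier results of these data known. Named were all 9 measured genes, up to 4 genes per pathway list with the largest difference among those that passed, and the 5 genes most like the 9. For cell type lists the plan was up to 2 genes with the highest mean in control skin. Not all of these are named, and other genes of those lists are named outside the plan. Further genes are marked in the text, and Csn2, Rb1 and Xist serve as checks. List genes without a probeset of 1 symbol are not analysed here. Replicate numbers were taken not to pair the samples, since in 3 of the 13 same-numbered pairs the deviations from the group means correlated above 0.1. The alternatives were the replicate block, brighter probesets, quantile normalization, median centring, another prior, array weights, Student and Welch tests, the median of a gene's probesets, covariates, other groupings and thresholds, and leaving out each array in turn.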

Additional observations from a re-analysis of the deposited data

Results flagged for a closer look

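Scd1, Scd3 and Cidea differed between the grades of tumor by the test of the difference itself, by -2.74, -1.25 and -2.13 on the log2 scale for undifferentiated or spindle minus poorly differentiated tumors. All 3 poorly differentiated tumors were p53 tumors with high Csn2. Within p53 tumors alone the differences were -2.26, -1.11 and -1.89 and did not pass, and p53 tumor 3, undifferentiated and high in Csn2 (10.80), was at 9.78 for Scd1, 4.21 for Scd3 and 4.46 for Cidea.

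In 3 gene and group combinations a single sample stood far from the others of its group. Plin5, a lipid droplet protein, was at 6.55 in p53 tumor 5, and the other p53 tumors ran between 5.56 and 5.96. Krt79 was at 7.83 in pRbp53 tumor 4, a mixed tumor, against 4.14 to 4.70 in the other pRbp53 tumors. Rxra was at 9.14 in p53 tumor 7, and the other p53 tumors ran between 7.77 and 8.12. The search covered 90 combinations of 30 genes with their groups, in which chance alone flags about 1 in 20.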

How the results depend on the processing

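For tumors against control skin, the count of lower genes was between 6 and 8 under every alternative run, and 6 was all of the genes tested where brighter probesets alone were kept. It was 7 to 8 when each array was left out in turn, with Fasn lost without control skin 2, and 7 at an adjusted p of 0.01. For pRbp53 against p53 tumors the count was 0 under every alternative run, including the methods' t-test and the Welch test, and 0 to 0 with arrays left out.

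For grade, 3 genes passed in the main test and 3 to 3 with arrays left out. The count was 0 with the replicate block, 0 in the Welch test, 1 with Xist as a covariate, 0 with genotype as a covariate, 0 with mixed tumors counted as poorly differentiated and 0 in p53 tumors alone, and the cause was not tested. The differences with genotype as a covariate and in p53 tumors alone are the same by construction. The replicate block left 8 and 0 in the first 2 comparisons.

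Changes of sign occurred in genes that had not passed. For genotype, Far2 was at -0.0157 with median centring, -0.0064 with array weights, -0.0560 with the median of its probesets, -0.0094 with Xist as a covariate, -0.0747 in spindle tumors and -0.0791 without high casein, and between -0.0374 and 0.0387 with arrays left out. Elovl3 was at -0.0204 without high casein and between -0.0539 and 0.14 with arrays left out, Dgat2 at 0.17 in spindle tumors and Scd1 at 0.26 without high casein. For grade, the replicate block gave 0.0027 for Far2, 0.24 for Elovl3 and -0.0705 for Mc5r, and the actin covariate 0.0510 for Elovl3. Counting mixed tumors as undifferentiated gave 0.0027 for Far2 and 0.0127 for Elovl3, and Elovl6 was at 0.28 both with genotype as a covariate and in p53 tumors alone. With arrays left out, Far2 was between -0.13 and 0.0299, Elovl3 between -0.13 and 0.0244 and Elovl6 between -0.55 and 0.16. Leaving out the arrays with high casein, which means Csn2 above 8, was chosen after seeing the data.

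The main limits are 3 poorly differentiated tumors, 4 control skins and, for Far2, Elovl3 and Mc5r, signals at the low end of the array, where differences between tumors are not detectable. Cidea (3.71 to 4.46) and Scd3 (4.21 to 5.09) were also at or near that end in undifferentiated or spindle tumors. Of the other lipid genes named, Cidec was lost in the Welch test (adjusted p = 0.0532), Plin5 in the Welch test (0.0772) and in poorly differentiated (0.105) and mixed tumors alone (0.0589), and Rxra with the median of its probesets (0.0671) and in mixed tumors alone (0.0865).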
